A study of Mus musculus with 12 samples.

Results

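WNT signalling was described at the level of RNA through 45 genes: 13 WNT ligands, 12 receptors, 4 genes of the R-spondin axis, 4 genes for beta-catenin and its TCF/LEF partners, 5 feedback inhibitors and 7 secreted antagonists. The genes were listed by symbol and matched to Ensembl identifiers, and all 45 were found among the 54232 identifiers of the count files. Each had at least 15 counts over the 12 libraries and passed the filter on low counts, so no member was left out. The libraries came from dorsal wounds of male C57BLKS/J mice with the genotype Lepr (db/db), a leptin receptor mutation used as a model of obesity and type 2 diabetes, so all 3 groups share that genotype. Mice were given as 12.5 weeks old, and each wound was a 6 mm full-thickness punch on the back, collected on day 10. In the TD group (5 libraries) the wound was covered with a Tegaderm film only. In the Strain group (4 libraries) it carried a patch that imposes about 30% strain on the skin, and in the No Strain group (3 libraries) a patch without that strain. No unwounded skin and no animals without the mutation enter these groups. Whether any wounds shared a mouse is not stated in the labels, so p-values measure the spread between these samples, part of which may be technical.

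Total counts per library ran from 20354677 to 25059371, and 3 counts correspond to between 0.117 and 0.149 CPM, counts scaled to a common library total. Levels are given as CPM, and as RPKM (CPM per kilobase of annotated exon) where genes are compared with each other. Sample titles carry the numbers 1 to 6 in TD and 7 to 15 in the patch groups, so anything that follows those numbers cannot be told apart from wearing a patch. In these whole-wound samples, fewer cells of a type and less RNA per cell cannot be told apart.

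WNT proteins are secreted lipid-modified signals that bind Frizzled receptors and the co-receptors LRP5 and LRP6. In the canonical branch this binding spares beta-catenin from destruction, and beta-catenin then acts in the nucleus with TCF/LEF proteins on target genes, among them inhibitors of the pathway itself such as Axin2. Secreted antagonists bind WNT proteins or the co-receptors outside the cell, and R-spondins acting through LGR receptors keep Frizzled receptors on the surface. In skin the pathway is known for its part in hair follicle formation and cycling, and WNT activity has been studied in the repair of wounds.

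Compared with TD, most of the WNT genes that passed the test were lower under a patch, whether or not the patch imposed strain, and the members that passed included ligands (Wnt10b, Wnt11), Frizzled receptors (Fzd4, Fzd7, Fzd9), the stem cell receptor Lgr5 and the feedback inhibitors Axin2 and Nkd1. Sfrp2, a secreted antagonist and the member with the most RNA per exon length, passed as higher in Strain wounds. Its No Strain libraries also lay above TD, without passing. The Strain call of Sfrp2 held in 7 of the 12 fits that left out 1 library. For the lower members named here, both calls of Wnt11, Fzd4 and Fzd7 held in all 12. The Strain and No Strain calls held in 11 and 12 fits for Wnt10b and for Fzd9. They held in 4 and 2 for Lgr5, 5 and 10 for Axin2, and 7 and 7 for Nkd1. Between Strain and No Strain no member passed.

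In Strain wounds against TD, 11 of 45 members (24.4%) had an adjusted p under 0.05 in edgeR's quasi-likelihood test, against 12.6% of the 18618 genes tested. Of these, 1 was higher and 10 (22.2%) were lower, where 6.20% and 6.41% of all genes were. In No Strain wounds against TD, 14 members (31.1%) passed, against 17.8% of all genes, and all 14 were lower, where 8.40% of all genes were lower. With the patch groups averaged and set against TD, 19 members (42.2%) passed, against 24.4% of all genes, with 1 higher and 18 lower. The median log2 fold change over the 45 members was -0.26 for Strain, -0.45 for No Strain and -0.41 for both patches, beside 0.02, 0.00 and 0.01 over all genes tested. In 1 member all Strain libraries lay above all TD libraries and in 12 they lay below, where 7.47% and 7.15% of all genes did. In 3 members all No Strain libraries lay above TD and in 23 below, together 26 of 45, where 26.7% of all genes lay outside TD in either direction (14.3% above, 12.5% below). These comparisons share the 5 TD libraries, so they are not independent of each other. Against TD, 10 members passed in both patch groups: Wnt10b, Wnt11, Fzd4, Fzd7, Fzd9, Lrp6, Lgr5, Axin2, Nkd1 and Dkk2. Sfrp2 passed in Strain alone, Wnt3a, Wnt6, Fzd10 and Lgr6 in No Strain alone, and Rspo1, Tcf7l1, Nkd2, Apcdd1 and Sfrp4 passed for the mean of both patches without passing in either group. The shares of all genes that passed in both groups, in a single group or for the mean alone were not computed. These lists are therefore a description only. For each of the members in them the difference between Strain and No Strain did not pass. DESeq2 called 15 members in Strain against TD (16.1% of the genes it tested) and 22 in No Strain (20.1%). The members it added were Tcf7l1, Nkd2, Sfrp4 and Frzb in Strain, all lower, and in No Strain Wnt7b, Rspo1, Tcf7l1, Apcdd1 and Sfrp4, which were lower, and Wnt5a, Dkk3 and Sfrp1, which were higher.

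**Figure D1:**
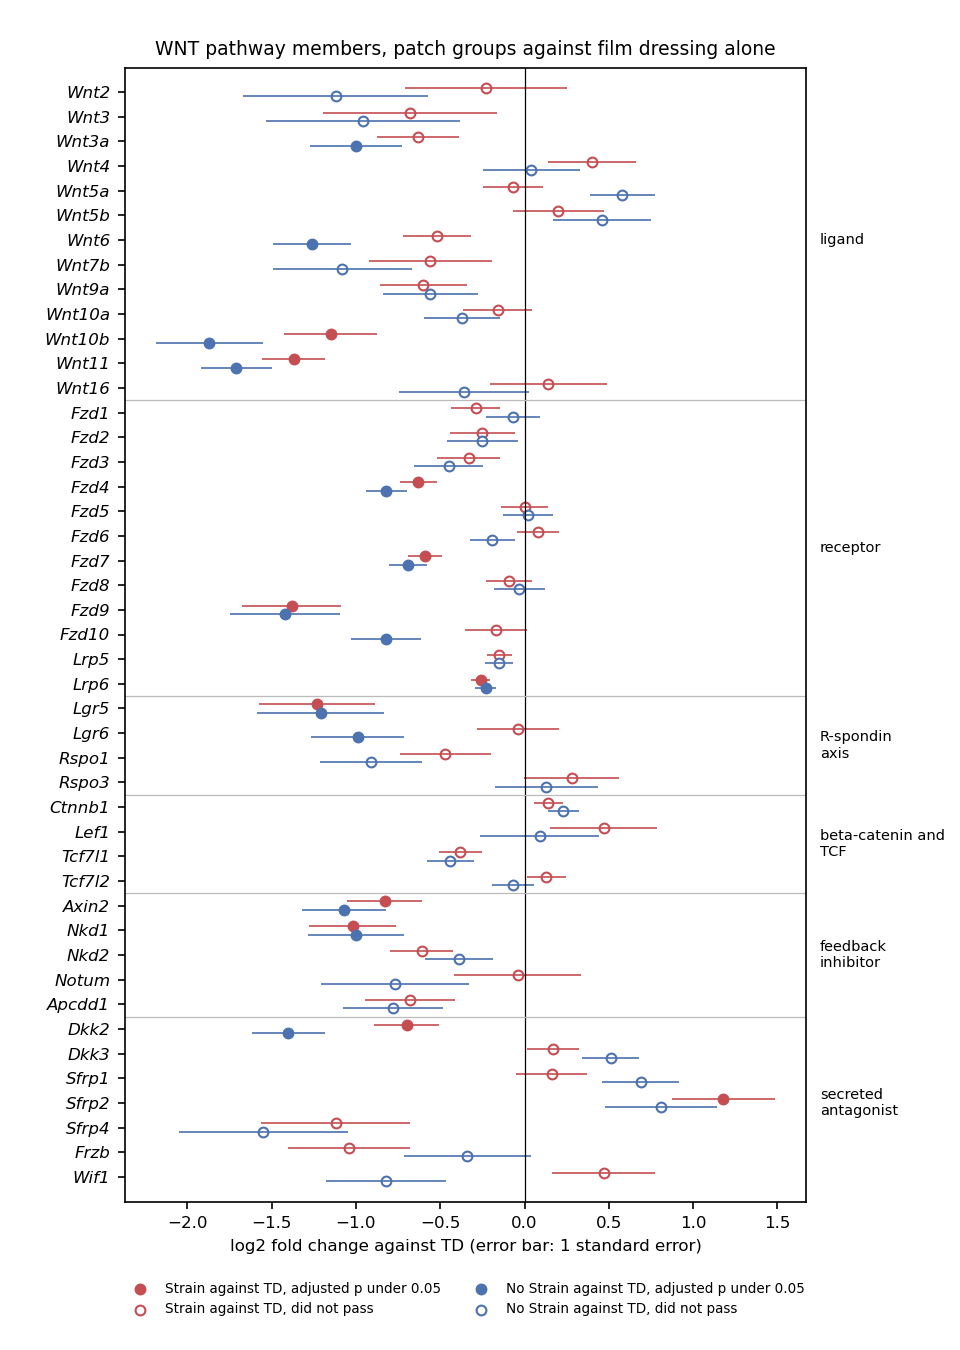
Log2 fold change against TD (x axis) for each of the 45 members (y axis, grouped by role), for Strain and No Strain, with bars of 1 standard error and filled points for an adjusted p under 0.05. Sfrp2 is the filled point to the right of 0, and the other filled points lie to the left.

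The sequences just before the start of 6 members that passed in both comparisons are shown here. Axin2 and Nkd1 among them are known beta-catenin targets. Whether the others share that control was not tested. The windows are the 250 bases upstream of the RefSeq start on GRCm38.p6, 5′ to 3′ on the gene's strand, in lower case, with capitals marking the core letters bound by TCF/LEF proteins. Of the 45 members, 29 had a window, and the first listed start is shown. The Fzd4 and Fzd9 windows overlap an annotated exon and are named only. The Nkd1 window lies inside the longer GENCODE gene model, which starts further upstream.
Axin2, chr11:108920099-108920348, plus strand: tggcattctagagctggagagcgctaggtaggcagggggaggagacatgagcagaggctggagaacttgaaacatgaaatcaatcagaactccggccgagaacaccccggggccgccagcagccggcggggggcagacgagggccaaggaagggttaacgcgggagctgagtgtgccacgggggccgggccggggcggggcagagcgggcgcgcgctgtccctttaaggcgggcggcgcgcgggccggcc
Nkd1, chr8:88527383-88527632, plus strand: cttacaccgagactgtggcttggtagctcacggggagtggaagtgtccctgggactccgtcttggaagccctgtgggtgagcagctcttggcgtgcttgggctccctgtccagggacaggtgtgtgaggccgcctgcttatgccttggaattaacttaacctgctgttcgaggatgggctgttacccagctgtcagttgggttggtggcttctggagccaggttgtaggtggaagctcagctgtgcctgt
Wnt10b, chr15:98778151-98778400, minus strand: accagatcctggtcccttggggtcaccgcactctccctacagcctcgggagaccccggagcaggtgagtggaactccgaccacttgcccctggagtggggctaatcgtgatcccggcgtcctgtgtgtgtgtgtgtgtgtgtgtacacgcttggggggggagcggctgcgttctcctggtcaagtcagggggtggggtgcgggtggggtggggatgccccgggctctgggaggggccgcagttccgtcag
Wnt11, chr7:98834862-98835111, plus strand: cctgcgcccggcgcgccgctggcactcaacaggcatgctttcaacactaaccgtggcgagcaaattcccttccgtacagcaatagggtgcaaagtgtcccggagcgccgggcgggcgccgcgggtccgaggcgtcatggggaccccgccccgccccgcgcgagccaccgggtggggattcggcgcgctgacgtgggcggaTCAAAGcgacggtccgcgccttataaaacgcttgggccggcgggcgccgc
Fzd7, chr1:59481897-59482146, plus strand: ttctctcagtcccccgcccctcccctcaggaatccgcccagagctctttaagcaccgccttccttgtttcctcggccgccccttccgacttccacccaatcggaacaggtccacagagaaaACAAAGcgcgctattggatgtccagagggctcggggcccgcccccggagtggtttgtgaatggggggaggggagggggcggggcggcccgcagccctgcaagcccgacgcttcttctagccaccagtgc
Dkk2, chr3:132085042-132085291, plus strand: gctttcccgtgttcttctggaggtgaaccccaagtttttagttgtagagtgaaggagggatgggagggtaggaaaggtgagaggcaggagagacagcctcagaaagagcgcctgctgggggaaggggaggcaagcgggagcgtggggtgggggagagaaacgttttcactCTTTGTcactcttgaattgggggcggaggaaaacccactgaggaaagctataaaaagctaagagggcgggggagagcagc
The letters searched were CTTTGA and CTTTGT on either strand, so they appear as TCAAAG or ACAAAG where the match is on the other strand. A match stood 50 bases before the start in Wnt11, 129 bases before it in Fzd7 and 80 bases before it in Dkk2, and no match stood in the Axin2, Nkd1 and Wnt10b windows. RefSeq lists several starts for 5 of the 29 members; a second Wnt11 window, at a later start, held no match. Counting every window of a gene, 8319 of 27025 genes (30.8%) and 9 of 29 members (31%) held a match. Counting the first listed window alone, 7494 genes (27.7%) and 6 members (20.7%) did. Of the members that passed in both comparisons, 8 had a window, and 3 of these held a match in it. Lrp6 and Lgr5 had no window. The letters are a description of these windows and say nothing about binding in these wounds.

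The ligands were dominated per exon length in TD by Wnt2 at 9.13 ± 4.20 RPKM (SD, n = 5) and Wnt9a at 8.86 ± 2.02 RPKM, whose spreads overlap. Wnt4 (5.85 RPKM), Wnt5a (5.60 RPKM), Wnt10a (5.32 RPKM) and Wnt10b (4.88 RPKM) followed, and Wnt3a was lowest at 0.947 ± 0.137 RPKM. Among the 13 ligands edgeR called 2 lower in Strain (15.4%, against 6.41% of all genes). It called 4 lower in No Strain (30.8%, against 8.40%). DESeq2 called 2 in Strain and 6 in No Strain, with Wnt5a higher among the latter. Of all genes it tested, DESeq2 called 16.1% and 20.1%. Wnt10b and Wnt11 fell in both.

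Wnt10b, a canonical ligand of the hair follicle and of fat cell precursors (chr15:98770712-98778150 on GRCm38), was at 15.4, 23.8, 12.0, 11.2 and 20.5 CPM in TD replicates 1 to 5. It was at 8.94, 6.08, 4.71 and 10.1 CPM in Strain, and at 3.78, 5.06 and 4.74 CPM in No Strain. Every patch library lay below every TD library. The log2 fold change was -1.15 (SE 0.274, edgeR adjusted p = 0.023) in Strain and -1.87 (SE 0.317, adjusted p = 0.00448) in No Strain. The Strain call was lost without Strain replicate 2, with an adjusted p of 0.0729.

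Wnt11, a ligand mostly tied to beta-catenin-independent signalling (chr7:98835112-98855195), was at 13.9, 14.1, 10.3, 10.5 and 12.2 CPM in TD. It was at 5.27, 3.87, 3.85 and 5.90 CPM in Strain, and at 2.75, 3.86 and 4.55 CPM in No Strain. The highest patch library stood well under the lowest TD library. Against TD, the log2 fold change was -1.37 (SE 0.185, edgeR adjusted p = 0.00386) in Strain and -1.71 (SE 0.210, adjusted p = 0.0017) in No Strain, and both calls held in each of the 12 fits that left out 1 library. Of its exon length, 8.8% overlaps a gene on the opposite strand, where reads cannot be told apart because the strand setting is not stated.

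Wnt6, an epithelial ligand, was at 2.26, 3.00, 2.87, 2.79 and 3.33 CPM in TD, at 1.79, 2.30, 2.02 and 1.82 CPM in Strain, and at 1.08, 1.67 and 0.790 CPM in No Strain. The No Strain libraries lay below all others, and Strain replicate 2 overlapped TD. This gave a log2 fold change of -1.26 (SE 0.231, edgeR adjusted p = 0.0059) in No Strain, and -0.52 (SE 0.200, adjusted p = 0.107) in Strain. Wnt3a, a canonical ligand that was scarce here, was at 2.47, 2.30, 3.27, 2.58 and 2.46 CPM in TD, at 1.54, 1.40, 2.69 and 1.10 CPM in Strain, and at 1.44, 1.46 and 1.02 CPM in No Strain. Only Strain replicate 3 among the patch libraries reached the TD range. On the log2 scale the difference from TD was -1.0 (SE 0.275, edgeR adjusted p = 0.0294) in No Strain and -0.63 (SE 0.243, adjusted p = 0.11) in Strain. The No Strain call for Wnt3a was lost without TD replicate 3 or 4 or without any of the 3 No Strain libraries, with adjusted p from 0.0516 to 0.115, and its Strain value passed without Strain replicate 3, at a log2 fold change of -0.97 and an adjusted p of 0.0134.

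Wnt5a, the main ligand of the beta-catenin-independent branch, ran the other way in No Strain without passing. It was at 46.0, 48.6, 34.8, 49.0 and 40.9 CPM in TD, at 51.5, 28.4, 38.2 and 48.6 CPM in Strain, and at 51.3, 68.6 and 76.5 CPM in No Strain. All 3 No Strain libraries lay above TD, while the Strain libraries lay on both sides of the TD range and within it. The log2 fold change against TD was 0.58 (SE 0.191, edgeR adjusted p = 0.0573) in No Strain and -0.07 (SE 0.179, adjusted p = 0.825) in Strain. The No Strain value passed without Strain replicate 2 (adjusted p = 0.0277) and without No Strain replicate 1 (adjusted p = 0.0484), and in DESeq2 (adjusted p = 0.0312).

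The other ligands did not pass in edgeR in any comparison, and DESeq2 called 2 of them lower: Wnt7b in No Strain (adjusted p = 0.0366) and for the mean of both patches (adjusted p = 0.0441), and Wnt9a for that mean (adjusted p = 0.047). Wnt2 varied widely, from 11.1 to 33.0 CPM in TD and from 4.83 to 28.3 CPM in Strain, against 8.96, 9.61 and 9.90 CPM in No Strain, where all 3 libraries lay below TD (log2 fold change -1.12, adjusted p = 0.18). Wnt7b, an epidermal ligand, gave -0.56 in Strain and -1.08 in No Strain, and Wnt3 gave -0.68 and -0.96. Wnt9a gave -0.60 and -0.56, Wnt10a -0.16 and -0.37, and Wnt16 0.14 and -0.36. Wnt4 gave 0.40 and 0.04, and Wnt5b gave 0.20 and 0.46.

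**Figure D2:**
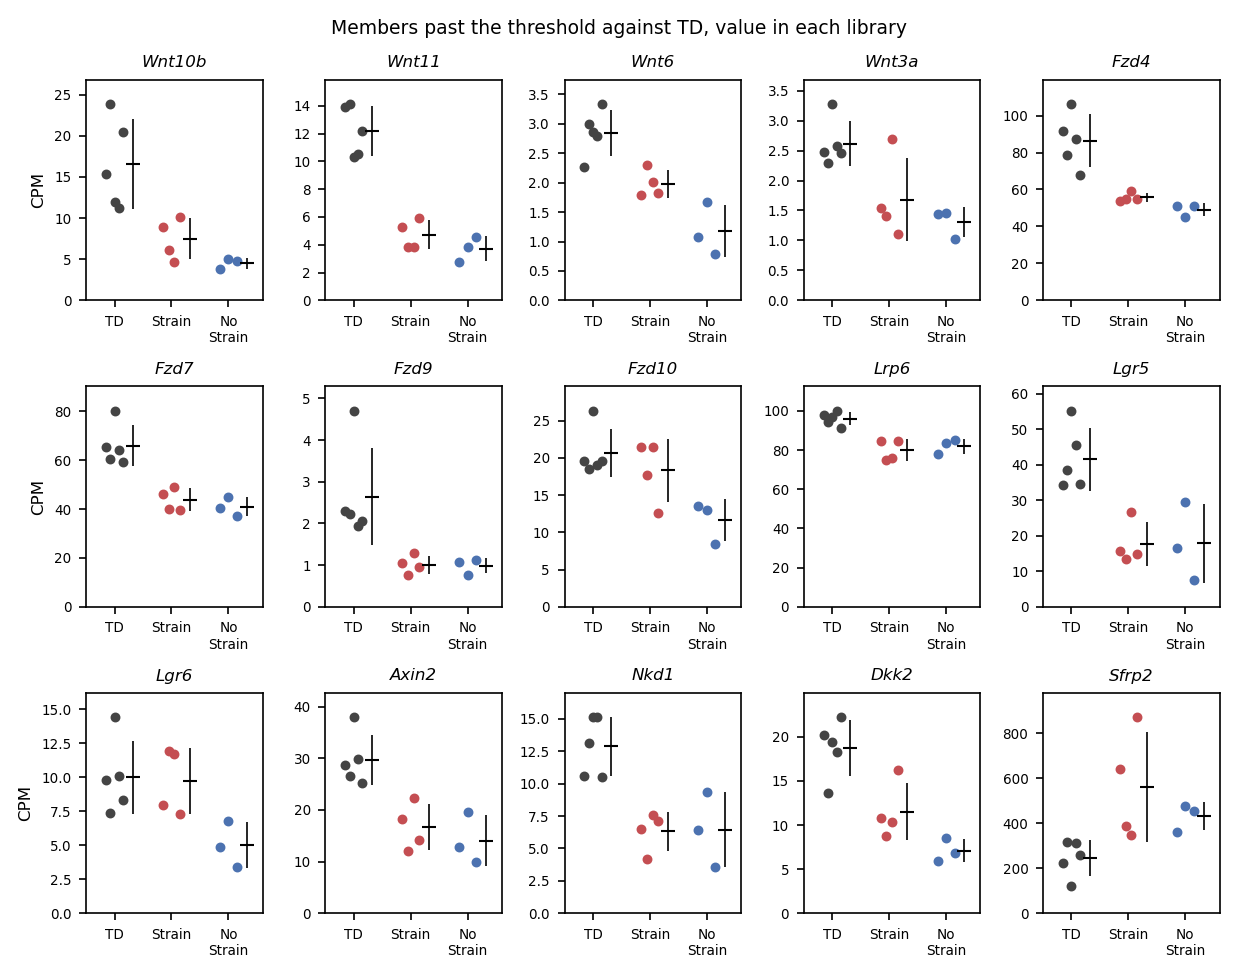
CPM (y axis) of members that passed against TD, 1 panel a gene, with 1 point a library in TD, Strain and No Strain and a bar for the mean ± SD. In the Wnt11 panel the patch points, from 2.75 to 5.90 CPM, all lie below the TD points, from 10.3 to 14.1 CPM.

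Among the 12 receptors, Fzd1 had the most RNA per exon length in TD, at 38.9 ± 4.36 RPKM, followed by Fzd2 (17.4 RPKM), Fzd7 (14.5 RPKM), Fzd4 (12.8 RPKM) and Fzd6 (10.6 RPKM), with Fzd3 lowest at 0.795 RPKM. Of the 12 receptors, 4 fell in Strain (33.3%, against 6.41% of all genes) and 5 in No Strain (41.7%, against 8.40%), and none rose. The most abundant, Fzd1, gave -0.29 in Strain and -0.07 in No Strain on the log2 scale and did not pass.

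**Figure D3:**
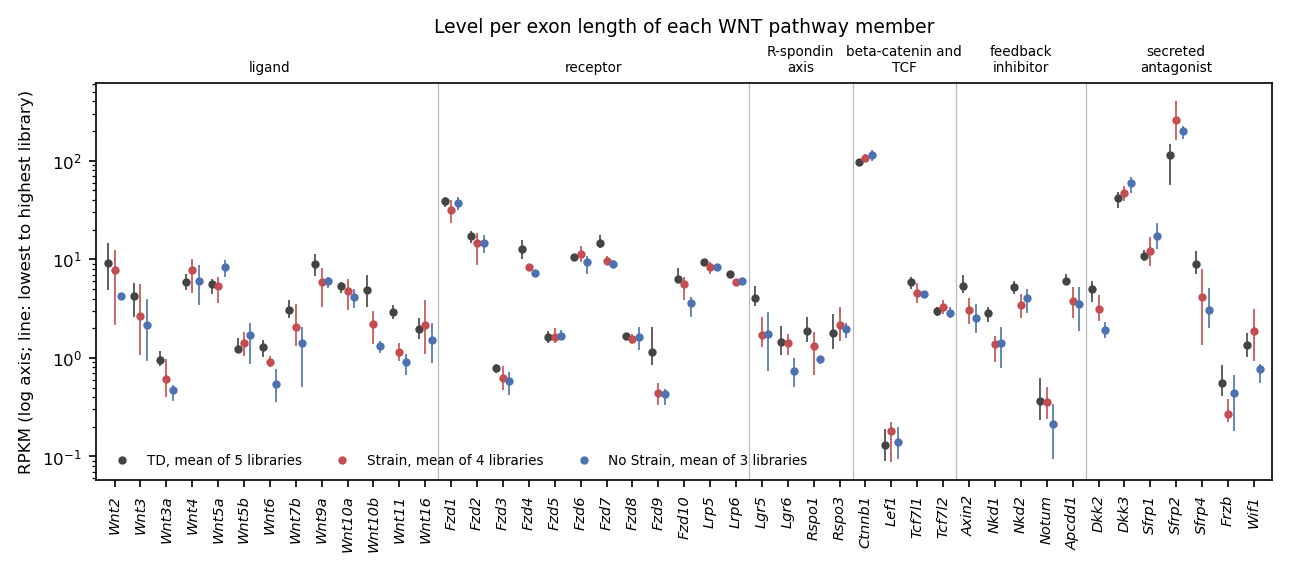
Mean level of each member in RPKM (y axis, log scale) in TD, Strain and No Strain, with a line from the lowest to the highest library and members on the x axis grouped by role. Sfrp2 and Ctnnb1 stand at the top of the range, with 115 and 97.2 RPKM in TD, and Lef1 at the bottom with 0.132 RPKM.

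Fzd4, a Frizzled of blood vessels and several other tissues (chr7:89404355-89413134), was at 91.7, 78.4, 106, 87.5 and 68.1 CPM in TD. It was at 53.5, 54.9, 59.4 and 55.1 CPM in Strain, and at 51.3, 44.9 and 50.8 CPM in No Strain. The 3 groups did not overlap, with No Strain lowest. The log2 fold change against TD was -0.63 (SE 0.108, edgeR adjusted p = 0.00775) in Strain and -0.82 (SE 0.120, adjusted p = 0.00273) in No Strain. The summed level of 6 endothelial markers was 366 to 468 CPM in TD, 459 to 660 CPM in Strain and 522 to 594 CPM in No Strain. Of these, 3 were called higher in each patch group (Pecam1, Cdh5 and Emcn), and Tek gave -0.16 in Strain and -0.48 in No Strain without passing. Over all genes, 6.20% were higher in Strain and 9.35% in No Strain. The part of these markers in the Fzd4 values was not tested.

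Fzd7 was at 65.4, 60.4, 80.2, 64.3 and 59.2 CPM in TD, at 46.4, 40.1, 49.2 and 39.7 CPM in Strain, and at 40.6, 45.0 and 37.3 CPM in No Strain. All patch libraries lay below TD and the patch groups overlapped each other. Relative to TD the log2 fold change was -0.59 (SE 0.103, edgeR adjusted p = 0.00812) in Strain and -0.69 (SE 0.113, adjusted p = 0.00399) in No Strain. The calls of Fzd4 and Fzd7 against TD held in each of the 12 fits that left out 1 library.

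Fzd9 was scarce, at 2.30, 2.22, 4.70, 1.94 and 2.06 CPM in TD, 1.04, 0.765, 1.28 and 0.959 CPM in Strain, and 1.08, 0.772 and 1.12 CPM in No Strain. TD replicate 3 stood apart at the top, and even the lowest TD library lay above every patch library. In the fit the log2 fold change was -1.38 (SE 0.294, edgeR adjusted p = 0.0154) in Strain, lost without Strain replicate 2 (adjusted p = 0.0503), and -1.42 (SE 0.327, adjusted p = 0.0148) in No Strain.

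Fzd10 passed in No Strain and not in Strain, and the difference between the patch groups did not pass (adjusted p = 0.872). It was at 19.6, 18.5, 26.3, 19.0 and 19.6 CPM in TD, at 21.5, 17.7, 21.5 and 12.6 CPM in Strain, and at 13.5, 13.0 and 8.46 CPM in No Strain. The No Strain libraries lay below TD, and Strain overlapped both. The log2 fold change was -0.82 (SE 0.207, edgeR adjusted p = 0.0213) in No Strain and -0.17 (SE 0.184, adjusted p = 0.576) in Strain, and the No Strain call was lost without No Strain replicate 3 (adjusted p = 0.0828).

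Lrp6, the co-receptor for canonical signalling, fell by a small amount. It was at 97.8, 94.4, 97.1, 100 and 91.1 CPM in TD, at 84.6, 74.8, 75.9 and 84.9 CPM in Strain, and at 77.8, 83.4 and 85.1 CPM in No Strain, with no overlap between TD and either patch group. Against TD, the log2 fold change was -0.26 (SE 0.0572, edgeR adjusted p = 0.016) in Strain and -0.23 (SE 0.0624, adjusted p = 0.0287) in No Strain. The No Strain call was lost without TD replicate 1, 3 or 4 or No Strain replicate 1 or 3, with adjusted p from 0.0513 to 0.101. Its relative Lrp5 gave -0.15 in both groups and did not pass. The remaining Frizzled genes lay between -0.45 (Fzd3 in No Strain) and 0.08 (Fzd6 in Strain) and did not pass.

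In the R-spondin axis, 1 of 4 members fell in Strain and 2 fell in No Strain. Over all genes 6.41% and 8.40% were lower, and 4 members are few to set beside those shares. Lgr5, an R-spondin receptor that marks hair follicle stem cells (chr10:115450311-115587780), was at 34.3, 38.5, 55.2, 45.6 and 34.5 CPM in TD. It was at 15.7, 13.4, 26.8 and 14.9 CPM in Strain, and at 16.6, 29.6 and 7.53 CPM in No Strain. Every patch library lay below TD, with Strain replicate 3 and No Strain replicate 2 nearest to it. This gave a log2 fold change of -1.23 (SE 0.342, edgeR adjusted p = 0.0383) in Strain and -1.21 (SE 0.379, adjusted p = 0.0471) in No Strain. Both calls were close to the threshold. The Strain call was lost without TD replicate 1, 2, 3 or 4, Strain replicate 1, 2 or 4, or No Strain replicate 1 (adjusted p from 0.0511 to 0.115). The No Strain call was lost without any single library other than Strain replicate 3 or No Strain replicate 2 (adjusted p from 0.0519 to 0.136).

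Lgr6, a related receptor of epidermal and follicle stem cells, was at 9.79, 7.35, 14.4, 10.1 and 8.33 CPM in TD, at 7.95, 11.9, 11.7 and 7.29 CPM in Strain, and at 4.86, 6.82 and 3.44 CPM in No Strain. The Strain libraries overlapped the TD range, and the No Strain libraries lay below both groups. Its log2 fold change against TD was -0.99 (SE 0.278, edgeR adjusted p = 0.0323) in No Strain and -0.04 (SE 0.243, adjusted p = 0.932) in Strain. The No Strain call was lost without TD replicate 1, 3 or 4 or No Strain replicate 1 or 3, with adjusted p from 0.0518 to 0.123. Of the ligands of this axis, Rspo1 gave -0.47 in Strain and -0.91 in No Strain and passed for the mean of both patches (log2 fold change -0.69, adjusted p = 0.0496), and Rspo3 gave 0.28 and 0.13.

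Of the 4 genes for beta-catenin and its partners, 0 passed in edgeR in either patch group, with 1 in Strain and 2 in No Strain at an unadjusted p under 0.05, and DESeq2 called 1 in each, Tcf7l1 (adjusted p = 0.0346 and 0.0254). Over all 18618 genes, 5487 in Strain and 6228 in No Strain had an unadjusted p under 0.05 in edgeR. DESeq2 called 16.1% and 20.1% of the genes it tested. Ctnnb1, which encodes beta-catenin, was at 470, 510, 504, 517 and 522 CPM in TD, at 603, 585, 506 and 533 CPM in Strain, and at 512, 599 and 666 CPM in No Strain. The groups overlapped, and the log2 fold change was 0.14 (SE 0.0863, edgeR adjusted p = 0.298) in Strain and 0.23 (SE 0.0935, adjusted p = 0.108) in No Strain, the latter passing without No Strain replicate 1 (0.33, adjusted p = 0.0494). Beta-catenin is regulated mostly by the stability of the protein, which RNA counts do not measure. Of its exon length, 15.1% overlaps other genes, mainly on the opposite strand.

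Lef1, a TCF/LEF factor of follicle matrix and dermal condensates, was near the low end of the members at 1.32, 1.03, 1.67, 1.01 and 0.789 CPM in TD, 1.79, 1.98, 1.91 and 0.767 CPM in Strain, and 1.13, 1.76 and 0.836 CPM in No Strain. Strain replicate 4 was low and the other Strain libraries were above all of TD. On the log2 scale the difference from TD was 0.47 (SE 0.317, edgeR adjusted p = 0.353) in Strain and 0.09 (SE 0.352, adjusted p = 0.885) in No Strain. Tcf7l1, a mostly repressive factor of follicle stem cells, had 5.95 RPKM in TD against 3.01 RPKM for Tcf7l2 and 0.132 RPKM for Lef1, and it passed for the mean of both patches (log2 fold change -0.41, SE 0.111, adjusted p = 0.0212). Tcf7l2 gave 0.13 and -0.07 in the 2 patch groups and did not pass.

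Feedback inhibitors, whose RNA is used as a readout of canonical signalling, were all below 0 in their log2 fold changes against TD. Of 5 members, 2 fell in Strain, 2 fell in No Strain and 4 fell for the mean of both patches. Over all genes, 6.41%, 8.40% and 12.1% were lower, in the same order. Axin2, a scaffold of the complex that destroys beta-catenin and a widely used canonical target (chr11:108920349-108950783), was at 28.8, 26.6, 37.9, 29.8 and 25.3 CPM in TD. It was at 18.3, 12.1, 22.3 and 14.2 CPM in Strain, and at 12.8, 19.6 and 9.85 CPM in No Strain. All patch libraries lay below TD. Relative to TD the log2 fold change was -0.83 (SE 0.222, edgeR adjusted p = 0.0342) in Strain and -1.07 (SE 0.248, adjusted p = 0.0155) in No Strain. The Strain call was lost without TD replicate 1, 2, 3 or 4 or Strain replicate 1, 2 or 4 (adjusted p from 0.0537 to 0.1), and the No Strain call without No Strain replicate 1 or 3 (adjusted p 0.0608 and 0.0622).

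Nkd1, which restrains Dishevelled, was at 10.6, 13.1, 15.1, 15.1 and 10.5 CPM in TD, at 6.51, 4.19, 7.59 and 7.09 CPM in Strain, and at 6.39, 9.35 and 3.58 CPM in No Strain. Again no patch library reached the TD range. In the fit the log2 fold change was -1.02 (SE 0.260, edgeR adjusted p = 0.0287) in Strain and -1.0 (SE 0.287, adjusted p = 0.0349) in No Strain. The Strain call was lost without TD replicate 2, 3 or 4 or Strain replicate 1 or 2 (adjusted p from 0.0539 to 0.0819), and the No Strain call without TD replicate 2, 3 or 4 or No Strain replicate 1 or 3 (adjusted p from 0.0586 to 0.106).

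Nkd2 was at 21.6 to 28.8 CPM in TD, 12.2 to 21.3 CPM in Strain and 13.8 to 23.9 CPM in No Strain, and passed for the mean of both patches (log2 fold change -0.50, SE 0.161, adjusted p = 0.0427). Apcdd1, a membrane inhibitor of the pathway linked to hair growth, was at 71.0 to 91.8 CPM in TD, 32.7 to 67.6 CPM in Strain and 24.2 to 68.1 CPM in No Strain. Both patch groups lay below TD and overlapped each other. Apcdd1 passed for that mean as well (log2 fold change -0.73, SE 0.231, adjusted p = 0.0394). Notum, an enzyme that inactivates WNT proteins, was at 0.887 CPM in TD, 0.857 CPM in Strain and 0.517 CPM in No Strain on average and did not pass, and 38.1% of its exon length overlaps genes on the opposite strand.

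The secreted antagonists moved in both directions. Of 7 members, 1 rose and 1 fell in Strain, and 1 fell in No Strain. Each is 14.3% of the 7. Over all genes 6.20% rose and 6.41% fell in Strain, and 8.40% fell in No Strain. Sfrp2, a secreted Frizzled-related protein made mainly by fibroblasts (chr3:83766321-83774316), was at 224, 318, 123, 312 and 258 CPM in TD. It was at 639, 386, 349 and 869 CPM in Strain, and at 361, 478 and 456 CPM in No Strain. Every patch library lay above every TD library, and Strain replicates 1 and 4 were highest. The log2 fold change was 1.18 (SE 0.308, edgeR adjusted p = 0.0312) in Strain and 0.81 (SE 0.331, adjusted p = 0.113) in No Strain. The Strain call was lost without TD replicate 1, 3 or 5 or Strain replicate 1 or 4, with adjusted p from 0.0505 to 0.0742, with no filter on low counts (adjusted p = 0.0898) and with the letter of the sample title as a covariate (log2 fold change 0.96, adjusted p = 0.158). That call was also lost with hair follicle markers as a covariate (1.42, adjusted p = 0.082) and with skeletal muscle markers (0.18, adjusted p = 0.955). Per exon length it was at 115 ± 37.0 RPKM in TD, 260 RPKM in Strain and 201 RPKM in No Strain, and 16.1% of that length overlaps a gene on the opposite strand. The summed level of 9 dermal fibroblast markers was 42713 to 66935 CPM in TD, 43530 to 74165 CPM in Strain and 54843 to 68926 CPM in No Strain, ranges that overlap.

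Dkk2, which binds LRP5 and LRP6, was at 20.2, 13.6, 19.4, 18.3 and 22.2 CPM in TD, at 10.8, 8.73, 10.3 and 16.2 CPM in Strain, and at 5.94, 8.54 and 6.83 CPM in No Strain. Strain replicate 4 reached into the TD range, and the No Strain libraries lay below all others. Against TD, the log2 fold change was -0.70 (SE 0.192, edgeR adjusted p = 0.0358) in Strain and -1.40 (SE 0.219, adjusted p = 0.00348) in No Strain. The Strain call was lost without TD replicate 1, 3, 4 or 5 or Strain replicate 1, 2 or 3, with adjusted p from 0.0661 to 0.104.

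Sfrp4 was at 29.5 to 50.1 CPM in TD, 5.72 to 33.3 CPM in Strain and 8.37 to 21.4 CPM in No Strain, and passed for the mean of both patches (log2 fold change -1.34, SE 0.377, adjusted p = 0.0258). Sfrp1 gave 0.16 in Strain and 0.69 in No Strain (adjusted p = 0.0563), and Dkk3 gave 0.17 and 0.51 (adjusted p = 0.0551). Frzb, with 0.557 RPKM in TD, gave -1.04 in Strain and -0.34 in No Strain, and neither value passed in edgeR. DESeq2 called Frzb lower in Strain (adjusted p = 0.0389), and Sfrp1 (adjusted p = 0.0294) and Dkk3 (adjusted p = 0.0301) higher in No Strain.

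Strain against No Strain is the comparison in which both groups wore a patch and the labelled strain differed. No member passed in edgeR (0 of 45, against 0% of all 18618 genes tested). DESeq2 called 0 of 45 members as well, where it called 29 of the 18381 genes it tested (0.158%). At an unadjusted p under 0.05, edgeR had 8 of 45 members and 5.61% of all genes. DESeq2, run on the same counts, had 8 members there. Its share over all genes was not computed, so that count is not a second, separate result. In 5 of 45 members the patch groups did not overlap, where 5.62% of all genes did not. In these 5 all Strain libraries lay above all No Strain libraries (Wnt6, Fzd4, Lgr6, Dkk2 and Wif1), where 2.85% of all genes did, and in 0 members they lay below, where 2.77% of all genes did. The median log2 fold change of the members was 0.19, beside 0.01 over all genes tested.

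The 3 members with the smallest p were Wif1, Lgr6 and Wnt5a. Wif1, an antagonist that binds WNT proteins directly, was at 4.67, 7.65, 3.70 and 2.25 CPM in Strain and at 2.12, 2.10 and 1.35 CPM in No Strain, with 3.62, 3.41, 4.30, 2.50 and 2.59 CPM in TD. The lowest Strain library stood just above the highest No Strain library. The log2 fold change between the patch groups was 1.30 (SE 0.371, edgeR unadjusted p = 0.0046, adjusted p = 0.872). Against TD, Wif1 gave 0.47 (SE 0.306, adjusted p = 0.33) in Strain and -0.82 (SE 0.356, adjusted p = 0.131) in No Strain. Lgr6 was 0.95 higher in Strain on the log2 scale (SE 0.288, edgeR unadjusted p = 0.0068, adjusted p = 0.872), and Wnt5a was at -0.65 (SE 0.202, unadjusted p = 0.0076, adjusted p = 0.872). With adjusted values this large, none of the 3 can be told apart from no difference in these 7 patch libraries, nor are the groups shown to be alike.

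**Figure D4:**
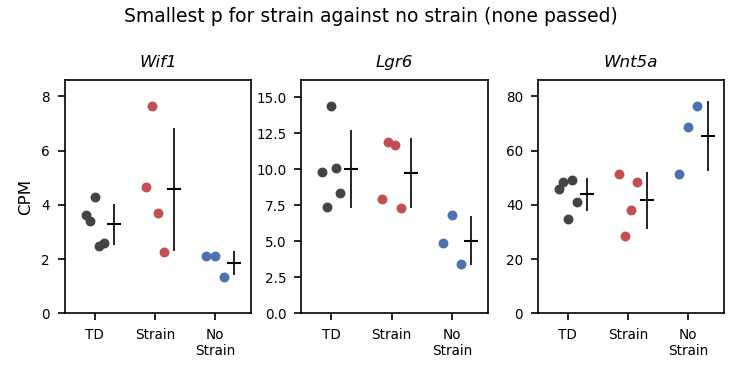
CPM (y axis, from 0) of Wif1, Lgr6 and Wnt5a in TD, Strain and No Strain, 1 point a library with the mean ± SD beside it. No Strain points lie below Strain points for Wif1 and Lgr6 without overlap, and for Wnt5a the lowest No Strain library (51.3 CPM) lies just under the highest Strain library (51.5 CPM).

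A further 62 genes of the pathway, covering WNT secretion, other ligands, R-spondin axis genes, intracellular components, antagonists and known targets, were described in the same fit, and 55 of them passed the filter on low counts. In Strain against TD, 4 passed (7.27%, against 12.6% of all genes), 1 higher and 3 lower. Cd44, a hyaluronan receptor and reported target, was higher (log2 fold change 0.57, SE 0.151, edgeR adjusted p = 0.0318). Sfrp5, another Frizzled-related antagonist, fell from 25.3 ± 7.70 CPM in TD (SD, n = 5) to 7.33 ± 2.96 CPM in Strain (n = 4) and 5.52 ± 3.18 CPM in No Strain (n = 3), with log2 fold changes of -1.79 (adjusted p = 0.0137) and -2.20 (adjusted p = 0.0069). Dvl1, a Dishevelled protein that relays the receptor signal, fell by 0.27 on the log2 scale in Strain (adjusted p = 0.0117) and by 0.26 in No Strain (adjusted p = 0.0127). Kremen1, a receptor for Dickkopf proteins, fell by 0.34 on the log2 scale in Strain (adjusted p = 0.0258) and by as much in No Strain (adjusted p = 0.0261).

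In No Strain against TD, 10 of the 55 passed (18.2%, against 17.8% of all genes), and all 10 were lower, among them Bcl9l, a beta-catenin co-activator (log2 fold change -0.51, adjusted p = 0.0162). For the mean of both patches 14 passed (25.5%, against 24.4% of all genes), 1 higher and 13 lower. In Strain against No Strain, DESeq2 called 0 of those it tested, against 0.158% of all genes. In edgeR 0 passed as well, with 2 at an unadjusted p under 0.05 (3.64%, against 5.61% of all genes). The smallest p values there belonged to Lgr4, the widely expressed R-spondin receptor (log2 fold change 0.42, adjusted p = 0.872), and Sostdc1, an antagonist of WNT and BMP signals (0.87, adjusted p = 0.872).

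Libraries of a group did not vary alike. TD replicate 3 was the highest of the 5 TD libraries for 19 of 45 members, Axin2, Lgr5, Fzd4, Fzd7, Fzd9 and Fzd10 among them. In Strain, replicate 3 was highest for 20 members and replicate 2 lowest for 21. In No Strain, replicate 2 was highest for 24 members and replicate 3 lowest for 24. Axin2, Nkd1, Lgr5 and Apcdd1 were highest in Strain replicate 3 and No Strain replicate 2 and lowest in Strain replicate 2 and No Strain replicate 3, the libraries that came nearest to and stood farthest from TD.

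Markers of several cell types differed between TD and the patch groups along with these genes. Over all genes, 6.41% were lower in Strain, 8.40% in No Strain and 12.1% for the mean of both patches. In Strain 6.20% were higher, and in No Strain 9.35%. Of 10 hair follicle markers, 2 were lower in Strain, 3 in No Strain and 6 for the mean of both patches. Their summed level was 502 to 656 CPM in TD, 313 to 716 CPM in Strain and 277 to 545 CPM in No Strain, most of it from Krt79. Without Krt79, a split made after its level was seen, the other 9 summed to 14.6 to 125 CPM in TD. They summed to 4.94 to 12.9 CPM in Strain and 3.42 to 9.05 CPM in No Strain, with no overlap with TD. Among them the inner root sheath keratins Krt25, Krt71 and Krt73 and the hair keratin Krt35 were at 0 in some libraries. In TD, Krt75 alone was at 10.2 to 31.3 CPM. Krt25, Krt27 and Krt71 ran in TD from 0.0797, 0.175 and 0.132 CPM to 29.2, 15.9 and 56.3 CPM. Shh, also among the 9, ran the other way without passing (log2 fold change 1.25 in Strain and 0.52 in No Strain). Of 10 skeletal muscle markers 9 could be tested; 7 were lower in Strain and 2 in No Strain, and their summed level was 5150 to 11504 CPM in TD, 2137 to 3922 CPM in Strain and 3081 to 6733 CPM in No Strain. All 6 adipocyte markers were lower in No Strain and 4 were lower in Strain (1020 to 2263 CPM in TD, 728 to 1083 CPM in Strain, 535 to 811 CPM in No Strain). Of 7 neutrophil markers 6 were higher in Strain and 5 in No Strain (446 to 1660 CPM in TD, 871 to 8698 CPM in Strain, 2037 to 5169 CPM in No Strain). Of 7 basal keratinocyte markers, 2 were lower in Strain (Col17a1 and Itgb4) and 3 in No Strain (these and Krt15), with summed levels of 5650 to 7366 CPM in TD, 4545 to 11058 CPM in Strain and 4472 to 8417 CPM in No Strain. Every library held RNA of the basal keratinocyte and dermal fibroblast markers that the label of a dorsal wound implies.

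With the mean level of the hair follicle markers as a covariate, edgeR called 5 of 45 members in Strain against TD (Wnt11, Fzd4, Fzd7, Fzd9 and Dkk2), against 2.74% of all genes, and 3 in No Strain against TD (Wnt11, Fzd4 and Dkk2), against 1.02% of all genes. Calls over all genes fell as well, from 12.6% and 17.8%. Lgr5, Axin2 and Nkd1 were not among the members called, at log2 fold changes of -1.12, -0.80 and -0.89 in Strain and -1.06, -1.03 and -0.82 in No Strain, and adjusted p over the calls lost ran from 0.0538 to 0.258. With the muscle markers as a covariate edgeR called 0 members in Strain against TD, against 1 of all 18618 genes. There 6 members had an unadjusted p under 0.05, a count whose share over all genes was not computed. In No Strain it called 5 (Wnt6, Wnt10b, Wnt11, Fzd4 and Dkk2), against 404 of all 18618 genes. With this covariate the Strain log2 fold changes shrank to -0.07 for Fzd4, -0.23 for Fzd9, -0.37 for Fzd7 and 0.18 for Sfrp2. Those of Axin2, Lgr5 and Lrp6 were -0.69, -1.15 and -0.26. Those of Wnt10b, Wnt11, Dkk2 and Nkd1 grew in size, to -2.15, -1.66, -1.08 and -1.09. The muscle sum does not overlap between TD and Strain, so that covariate and the group can hardly be told apart. The hair follicle covariate averaged the log2 levels of all 10 markers, so Krt79 weighed no more in it than any other marker. The other 9 do not overlap in their sum between TD and either patch group. The hair follicle covariate and the group may therefore be hard to tell apart as well. The letter of the sample title, entered as a covariate, ended the Strain calls of Fzd9, Lgr5, Axin2, Nkd1, Dkk2 and Sfrp2 (adjusted p from 0.0559 to 0.158) and the No Strain calls of Wnt3a, Fzd10, Lgr5, Lgr6 and Nkd1 (adjusted p from 0.0535 to 0.129), where 4.29% and 11.5% of all genes were called. The letter, whose meaning is not stated, was L in TD replicate 1 and R in TD replicates 2 to 5. It was L in Strain replicates 1, 2 and 4 and No Strain replicates 2 and 3. It was R in Strain replicate 3 and No Strain replicate 1. Letter and group are thus partly tied and cannot be fully told apart. Without a filter on low counts, the Strain calls of Lgr5, Axin2 and Sfrp2 (adjusted p from 0.0737 to 0.115) and the No Strain calls of Lrp6, Lgr5 and Nkd1 (adjusted p from 0.0577 to 0.136) were lost, and with only the groups compared the No Strain call of Lgr5 was lost (adjusted p = 0.0582). What part the mix of cells plays in the WNT values was not tested beyond these fits.

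**Figure D5:**
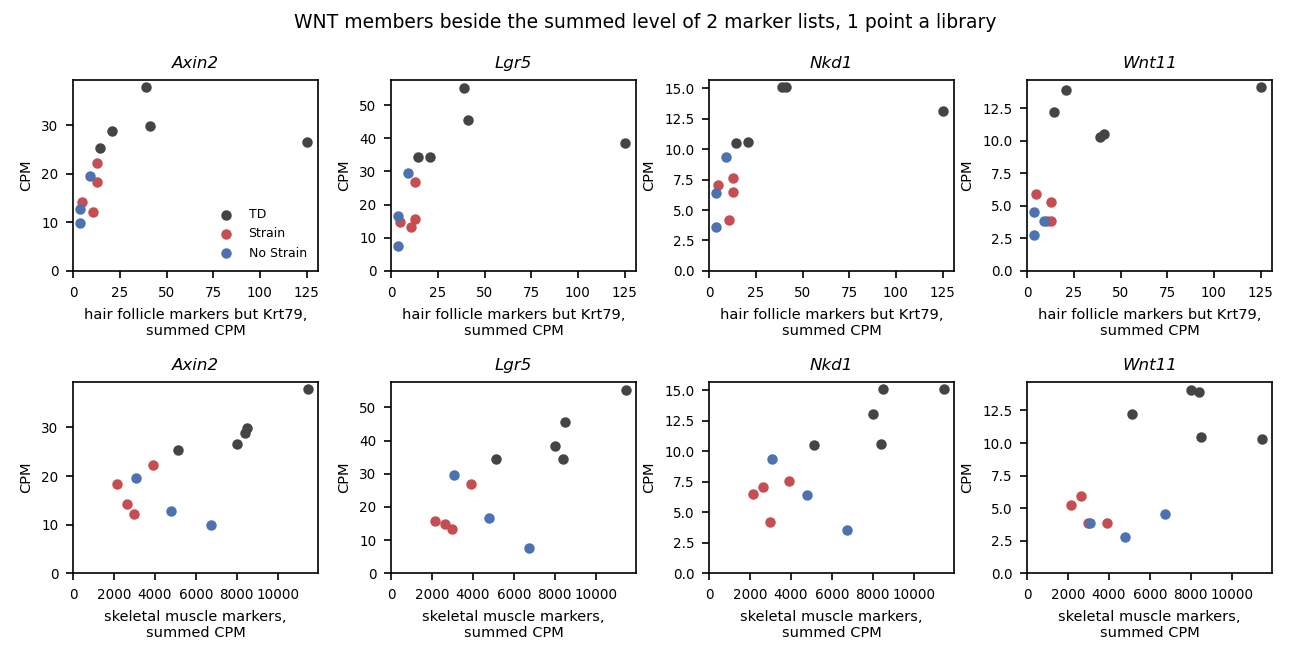
CPM of Axin2, Lgr5, Nkd1 and Wnt11 (y axes) against the summed CPM of 9 hair follicle markers (upper row, Krt79 left out) and of the skeletal muscle markers (lower row), 1 point a library, coloured by group. TD points lie above the patch points in every panel, and on the hair follicle axis all patch libraries lie at 12.9 CPM or less, under the lowest TD library at 14.6 CPM.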

How the data were processed

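RNA from 12 wounds was sequenced. Per the labels' protocols, oligo(dT) beads were used to enrich mRNA from frozen tissue. The values the authors deposited are raw counts for each gene, with a separate file for each of the libraries. The submitters' processing notes name bcl2fastq 2.17, FastQC, cutadapt, STAR, featureCounts, DESeq2 and the build GRCm38, without roles. Annotation release, strand setting and the rule for reads matching several genes are not given in the sources used here. Symbols, coordinates and exon lengths came from GENCODE M21, and upstream sequences from RefSeq (GRCm38.p6). RPKM rests on the union of all annotated exons, which may exceed the transcripts used in skin.

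Genes were filtered by filterByExpr (minimum count 10, minimum total 15) and libraries scaled by TMM, and all 12 libraries entered 1 quasi-likelihood fit in edgeR 4.0.16 (R 4.3.3). Benjamini-Hochberg adjustment ran over 18618 genes, with a threshold of 0.05. On simulated counts for 18618 genes with 200 changed, the fit recovered 58% of genes changed by 1 log2 unit in the Strain and TD comparison, 54% with No Strain and TD, and 60% between the patch groups. Of the genes called there, 8.12%, 2.03% and 5.16% were false, in the same order. In the data 2349 genes were called in Strain and 3305 in No Strain against TD, far more than the 200 simulated. The simulated shares may therefore not hold for the comparisons with TD. Alternatives were DESeq2 1.42.0 and its size factors, no filter or a stricter filter (mean of at least 5 CPM), only the groups compared, covariates (the letter in the sample title, muscle or hair follicle markers), no robust weights, each library left out, and library totals alone, which was added after seeing the data. The WNT members, the other pathway genes and the marker lists were chosen with earlier results of these data known. Members were given in full where they passed against TD in either patch group, where they had 1 of the 3 smallest p between the patch groups, and for Ctnnb1, Axin2, Lef1, Lgr5, Wnt5a and Wnt10b in any case. Other pathway genes were named up to 3 per direction by smallest p among those that passed, and the 2 with the smallest p between the patch groups.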

Additional observations from a re-analysis of the deposited data

Results flagged for a closer look

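In 90 group values (45 members in TD and in Strain; groups of 3 were not examined), 7 had a single library that stood apart from the rest of its group by Dixon's criterion, where chance gives about 4.5. TD replicate 3 stood apart at the top for Fzd9 (4.70 CPM, next highest 2.30 CPM), Fzd10 (26.3 CPM, next 19.6 CPM) and Apcdd1 (91.8 CPM, next 75.8 CPM). TD replicate 4 stood apart for Wnt5b at 4.20 CPM (next 3.11 CPM). Strain replicate 3 stood apart at the top for Lgr5 (26.8 CPM, next 15.7 CPM) and Frzb (1.25 CPM, next 0.767 CPM). Strain replicate 4 stood apart at the bottom for Lef1, at 0.767 CPM where the next lowest Strain library had 1.79 CPM.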

How the results depend on the processing

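Over the named members and 3 comparisons, 1239 values under alternative settings were computed. Of these, 1110 stayed on their side of the threshold, whatever their sign. They include values that had not passed as reported, among them all values for Strain against No Strain. A further 122 kept the direction but no longer passed, and these come only from the reported calls against TD. Another 7 passed where the reported value had not, and 0 changed sign with a call. The number of members called in Strain against TD was 11 as reported, 5 with the title letter as a covariate, 0 with the muscle markers and 5 with the hair follicle markers, and ran from 5 (without Strain replicate 2) to 13 when 1 library was left out. It was 7 without TD replicate 1 or 4, where 9.18% and 6.88% of all genes were called, against 12.6% as reported. It was 6 without TD replicate 3 or Strain replicate 1, where 7.03% and 8.92% of all genes were called. In No Strain against TD it was 14 as reported, 5 with the muscle markers, 3 with the hair follicle markers and 22 in DESeq2 (3 higher, 19 lower), and ran from 8 (without No Strain replicate 3) to 17, with 9 without TD replicate 3. For both patches against TD it was 19 as reported, 11 with the title letter, 1 with the muscle markers and 6 with the hair follicle markers, and ran from 14 to 23. Calls over all genes fell under the same settings: in Strain against TD from 2349 to 798 with the title letter, 510 with the hair follicle markers, 1 with the muscle markers and 882 without Strain replicate 2, and in No Strain against TD from 3305 to 404 with the muscle markers, 189 with the hair follicle markers and 1505 without No Strain replicate 3. For both patches they fell from 4552 to 2589, 946 and 26 with the title letter, hair follicle and muscle markers. In No Strain against TD, calls over all genes were 2356 without TD replicate 3. For both patches they were 3638 without TD replicate 1 (14 members) and 4570 without Strain replicate 3 (23 members). The cause was not tested. In Strain against No Strain the number of members called was 0 in edgeR and DESeq2 and in each of the 12 fits with a library left out. DESeq2 called 29 of 18381 genes there. In all 12 of those fits, 4 of the 11 Strain calls and 7 of the 14 No Strain calls held. A fit of only the groups compared was not run for both patches against TD, because that comparison uses all groups. No paired analysis was possible because the labels give no replicate numbers shared between groups: the numbers in the titles differ between groups. Depth limits the scarcest members, Notum, Lef1 and Frzb, which had 221, 371 and 393 counts over all libraries.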
